A study of Homo sapiens with 15 samples.

Results

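The polo-like kinases are a family of serine/threonine protein kinases encoded in human by PLK1, PLK2, PLK3, PLK4 and PLK5, and the RNA of these 5 genes, of 61552 gene rows in all, was followed here in a bulk RNA-seq study of H1299 cells. The 5 genes were chosen by family name and Ensembl ID, and the family was selected on earlier results of these same libraries. Their differences between groups, with the adjusted p-values, are therefore given as a description and support nothing further. H1299 is an established line of human non-small cell lung carcinoma that is p53-null, so p53 in these cells comes from the construct they carry. There were 5 groups with 3 libraries each, 15 in all. For the 2023 data the cells overexpressed either wild-type p53, the group WT, or the control vector, the group Ctrl. For the 2022 data they overexpressed p53, LLPSEp53_1 or LLPSEp53_2, constructs that the series title ties to the liquid-liquid phase separation of p53, its tendency to condense into droplets. The sources used here do not state how the LLPSEp53 constructs differ in sequence, which promoter drove them or how long after delivery RNA was taken. The 2022 data have no control vector, so levels of 2023 and 2022 are only set side by side, and the year and the construct cannot be told apart between them.

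The family works at several points of the cell division cycle. PLK1 is activated by Aurora A and its cofactor Bora and drives entry into mitosis, spindle assembly and cytokinesis, while PLK4 starts the duplication of centrioles together with STIL and SASS6. PLK2 and PLK3 are inducible by serum, stress and p53, and they act on stress responses, synapses and the S phase. Human PLK5 is a shortened family member without an intact kinase domain and is known mainly from the nervous system. p53 is known to act on the family by activating PLK2 and PLK3 directly, and by lowering mitotic genes such as PLK1 through p21 and the DREAM complex.

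The genes lie on different chromosomes (GRCh38, GENCODE release 29). PLK1 (ENSG00000166851) lies on the plus strand of chromosome 16 from 23677656 to 23690367, PLK2 (ENSG00000145632) on the minus strand of chromosome 5 from 58453982 to 58460260, and PLK3 (ENSG00000173846) on the plus strand of chromosome 1 from 44800225 to 44805990. PLK4 (ENSG00000142731) lies on the plus strand of chromosome 4 from 127880861 to 127899195, and PLK5 (ENSG00000185988) on the plus strand of chromosome 19 from 1524074 to 1536046. The longest annotated coding sequence encodes 603 amino acids for PLK1, 685 for PLK2, 646 for PLK3, 970 for PLK4 and 336 for PLK5. Promoter stretches of RefSeq (GRCh38.p14) are printed for the members that stand for each route, 5′ to 3′ on the strand of the gene, with motif matches in capitals. For PLK1, bases 80 to 1 before the RefSeq start (chr16:23678809-23678888, plus strand) hold a CCAAT box and, 29 to 24 bases before the start, TTTGAA, the cell cycle homology region (CHR) that the DREAM complex is known to read. For PLK2, bases 140 to 61 before the start (chr5:58460147-58460226, minus strand) hold 1 match to the p53 half-site and the cAMP response half-site TGACG. The p53 half-site pattern is the same on both strands, so any match to it reads as a match on both. For PLK4, bases 27 to 50 after the start (chr4:127880919-127880942, plus strand) hold the CHR on the opposite strand.
PLK1: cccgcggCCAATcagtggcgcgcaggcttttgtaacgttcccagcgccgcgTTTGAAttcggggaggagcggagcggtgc
PLK2: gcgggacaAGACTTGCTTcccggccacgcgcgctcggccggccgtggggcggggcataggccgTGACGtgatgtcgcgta
PLK4: cggcgggagattTTCAAAatggga
Of 35116 RefSeq windows of the same length, from 250 bases before a start to 50 after it, 15.2% held TTTGAA, 34.6% CCAAT, 24.6% TGACG, 6.63% a p53 half-site and 1.29% a serum response CArG box, counting both strands. A match is a description of letters. The PLK3 window held none of these letters, and PLK5 had no window to search. PLK4 had 3 windows. The window of the printed stretch also held TGACG across the start, and another held CCAAT 86 to 82 bases before its start, both on the opposite strand.

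Libraries of 2023 held 16208538 to 19228748 counts and those of 2022 held 13535397 to 16438272, so that 3 counts, the limit that a count of 0 allows, came to 0.156 to 0.222 CPM (counts scaled to library size). CDKN1A, which encodes the cell cycle inhibitor p21, stood at 242 ± 10.4 CPM in Ctrl and 758 ± 37.9 in WT (SD, n = 3 each). MDM2, the ubiquitin ligase that degrades p53, stood at 58.8 ± 2.003 CPM in Ctrl and 271 ± 26.5 in WT (SD, n = 3 each). The labels place p53 replicate 2 in another batch, and it stood apart: it held 2.54 times the CDKN1A and 2.01 times the MDM2 of the mean of p53 replicates 1 and 3. The fit of 2022 therefore carried a batch term, so that replicate 2 enters no difference and the p53 level is that of replicates 1 and 3 (n = 2). Keratins KRT8 and KRT18 and the mesenchymal filament gene VIM were between 700 and 1972 CPM in every library. The epithelial genes EPCAM, CDH1 and KRT19 were at most 1.66 CPM. The lung lineage gene NKX2-1 was at 0.92 to 6.995 CPM, and the surfactant genes SFTPB and SFTPC stayed under 1 CPM. The immune gene PTPRC and the fibroblast gene LUM were at 0 in all 15 libraries, but other genes of these kinds were not. The fibroblast gene COL1A1 was at 0.48 to 3.45 CPM, and the immune gene CD68 reached 0.31 CPM. The endothelial genes PECAM1 and VWF reached 2.49 and 1.48 CPM and were detected in every library. Whether replicates were separate cultures is not stated by the labels, and each p-value therefore reflects only how far these libraries spread, which may be technical. In bulk RNA, fewer cells with a transcript and less of it per cell cannot be told apart. Whether counting used strand is not stated, and 553 exonic bases of PLK1 are shared with the antisense gene AC008870.3, 42 with ERN2, and 78 of PLK3 with TCTEX1D4, so reads there cannot be assigned to a strand.

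H1299 cells carried much PLK1 and PLK2 RNA, several-fold less PLK3 and PLK4, and very little PLK5. As mean levels per kilobase of annotated exon in Ctrl, PLK2 had 48.5 ± 0.53 CPM per kb, PLK1 43.6 ± 9.83, PLK4 5.93 ± 0.31, PLK3 5.17 ± 0.90 and PLK5 0.061 ± 0.038 (SD, n = 3 each). The libraries of PLK2 and PLK1 overlapped there, and so did those of PLK4 and PLK3. In WT the order was PLK2 at 61.5 ± 3.73 CPM per kb, PLK1 at 38.8 ± 5.15, PLK3 at 8.54 ± 0.46, PLK4 at 6.24 ± 1.16 and PLK5 at 0.43 ± 0.072 (SD, n = 3 each), with no neighbours overlapping. PLK1 led in all groups of 2022, with 31.0 CPM per kb in p53 against 28.4 for PLK2, with 39.0 against 35.6 in LLPSEp53_1, and with 41.4 against 25.3 in LLPSEp53_2. Divided by the longest transcript in place of all exons, PLK2 led PLK1 in p53 (45.7 against 35.7) and LLPSEp53_1 (57.3 against 44.9), so this order depends on the length taken. The same holds for PLK3 and PLK4 in Ctrl and p53. PLK5 was the lowest in each of the 5 groups by either length.

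**Figure D1:**
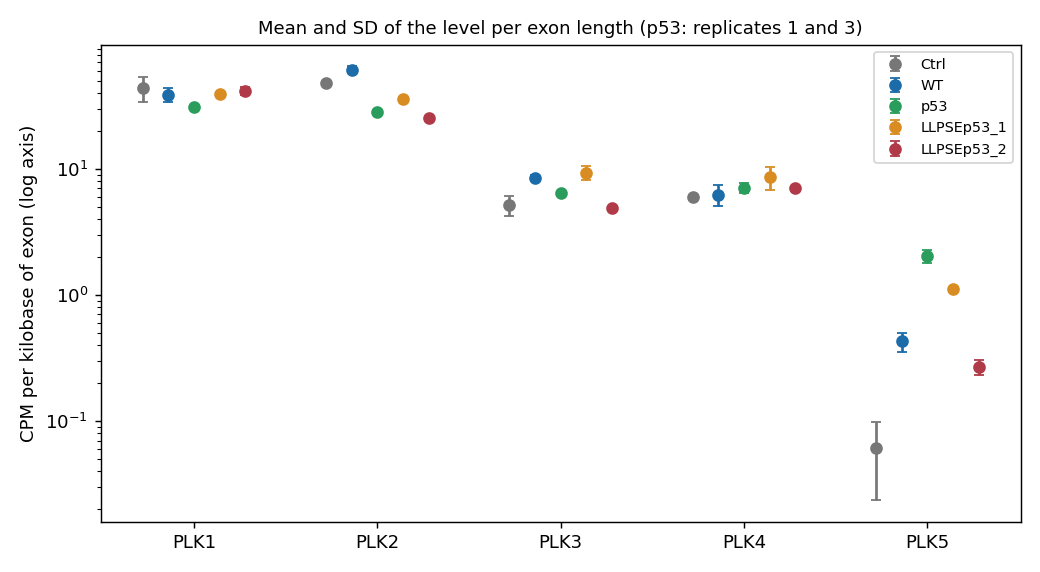
Mean level of each gene per kilobase of annotated exon (CPM per kb, log axis) in the 5 groups; points are means and bars the SD over 3 libraries, or over replicates 1 and 3 for p53. PLK1 and PLK2 lie between 25.3 and 61.5, PLK3 and PLK4 between 4.91 and 9.34, and PLK5 between 0.061 and 2.03.

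By edgeR's test PLK3 and PLK5 passed in some of the 4 comparisons and PLK1, PLK2 and PLK4 in none, while DESeq2 also called PLK2 in 2 of them. In WT against Ctrl, 2 of the 5 genes passed, PLK3 and PLK5, both higher in WT, and 3 passed with DESeq2, PLK2 being the third. PLK5 was tested there only because the WT libraries passed the filter on low counts, so its direction, higher in WT, was set by the filter. Of 16156 tested genes, 4.12% passed in either direction, 3.24% higher and 0.873% lower. That is 524 higher and 141 lower genes, against 521 and 26 with the GC trend removed and 723 and 658 without Ctrl replicate 2. In LLPSEp53_1 against p53, none of the 5 passed edgeR's test and none passed DESeq2's, and among 17459 tested genes 0.888% passed (0.0515% higher, 0.836% lower). At unadjusted p under 0.05 there were 4 of the 5, and 13.1% of tested genes. In LLPSEp53_2 against p53, 1 of 5 passed, PLK5, lower in LLPSEp53_2, with 1.93% of tested genes passing (0.103% higher, 1.83% lower). In LLPSEp53_2 against LLPSEp53_1, 2 of 5 passed, PLK3 and PLK5, both lower in LLPSEp53_2 (3 with DESeq2, PLK2 included), with 0.372% passing (0.0229% higher, 0.349% lower). Nothing is read from these shares, since the family was selected with these comparisons known. For the lists that follow, the shares of all tested genes at unadjusted p under 0.05 were 8.94% higher and 9.22% lower in WT against Ctrl, 5.72% and 7.34% in LLPSEp53_1 against p53, 4.89% and 7.94% in LLPSEp53_2 against p53, and 2.73% and 4.5% in LLPSEp53_2 against LLPSEp53_1. Both comparisons with p53 share its libraries, so they are not separate evidence. Where groups are said below to overlap or not, the share of all tested genes that did so was not counted. Such statements only describe the libraries.

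**Figure D2:**
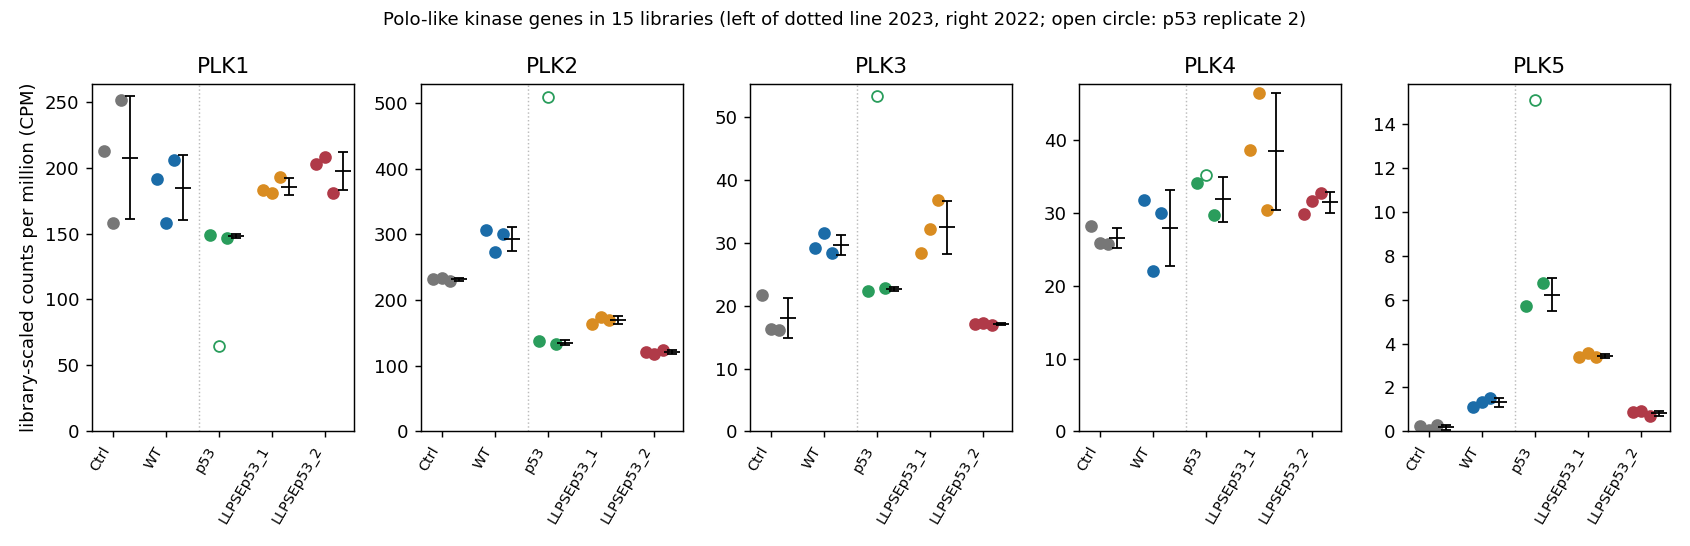
CPM of each of the 5 genes in all 15 libraries, one panel per gene with its own axis from 0; filled circles are libraries, the open circle is p53 replicate 2, and the black marks give mean and SD without it. PLK5 separates the groups with no overlap, while PLK1 and PLK4 of WT and Ctrl overlap, and p53 replicate 2 lies far below the others for PLK1 (64.5 CPM) and far above for PLK2 (510 CPM).

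PLK1, the kinase of mitotic entry, did not separate the vector from wild-type p53. Its WT libraries held 191, 158 and 205 CPM and its Ctrl libraries 213, 158 and 251 CPM. The groups overlapped, and the log2 difference of WT minus Ctrl was -0.17 ± 0.14 (SE; 95% interval -0.46 to 0.13; edgeR adjusted p = 0.585). It was -0.0085 with the GC trend removed, and ran from -0.33 without Ctrl replicate 2 to -5.9e-04 without Ctrl replicate 3, with -0.25 without WT replicate 3 and -0.065 without WT replicate 2. In 2022, PLK1 stood at 149 and 147 CPM in p53 replicates 1 and 3, at 183, 181 and 193 in LLPSEp53_1, and at 203, 208 and 181 in LLPSEp53_2. Every library of either LLPSEp53 construct was above both p53 libraries. The log2 differences from p53 were 0.33 ± 0.13 for LLPSEp53_1 (95% interval 0.043 to 0.61; adjusted p = 0.321) and 0.42 ± 0.13 for LLPSEp53_2 (0.13 to 0.70; adjusted p = 0.164), neither past the threshold. With no batch term, so that p53 replicate 2 counts, they were 0.63 and 0.72. The constructs themselves differed by 0.09 ± 0.12 (interval -0.16 to 0.34; adjusted p = 0.910), with overlapping libraries, and by 0.037 with the GC trend removed, 0.038 without LLPSEp53_2 replicate 2 and 0.15 without LLPSEp53_2 replicate 3.

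Among 23 genes that switch PLK1 on, that it phosphorylates or that remove it, 3 passed in WT against Ctrl, and the list's median log2 difference was -0.01, as was that of all tested genes (-0.01). FZR1, the APC/C cofactor that marks PLK1 for degradation at mitotic exit, fell from 97.5 ± 11.6 to 71.7 ± 2.59 CPM (1.36-fold lower; adjusted p = 0.0204). CDC25B, a phosphatase that activates CDK1, was 1.31-fold lower (adjusted p = 0.0452). WEE1, the kinase that restrains CDK1 and that PLK1 marks for degradation, rose from 35.6 ± 3.30 to 48.2 ± 1.91 CPM (SD, n = 3 each; 1.35-fold; adjusted p = 0.0254). None of the 3 calls held without WT replicate 1, 2 or 3 or Ctrl replicate 3, and none with the GC trend removed. In LLPSEp53_1 against p53, 21 of 23 lay above 0 with a median of 0.22 and none passed with edgeR or DESeq2 (3 higher and 0 lower at unadjusted p under 0.05, where all tested genes gave 13.1%), and PKMYT1, another CDK1-inhibiting kinase, had 0.71 ± 0.23 (adjusted p = 0.232). In LLPSEp53_2 against p53, 20 of 23 lay above 0 with a median of 0.20, again with none passing by either tool (4 higher and 1 lower unadjusted, where all tested genes gave 12.8%), and CDC20, the mitotic APC/C activator, had 0.50 ± 0.16 (adjusted p = 0.151). Between the constructs the median was 0.002, with none passing in either tool or at unadjusted p under 0.05.

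Of 24 further G2/M genes, which peak in expression together with PLK1, the median in WT against Ctrl was 0.06. None passed with edgeR or DESeq2 or at unadjusted p under 0.05. In 2022, 23 of them were tested. Against p53, 22 of 23 lay above 0 in LLPSEp53_1 (median 0.24) and 23 of 23 in LLPSEp53_2 (median 0.23), while the median of all tested genes was -0.0001 and 0.006. None passed by either tool, and 4 genes in LLPSEp53_1 and 1 in LLPSEp53_2 were higher at unadjusted p below 0.05, as were 5.72% and 4.89% of all tested genes. AURKB, the kinase of the chromosomal passenger complex, had the smallest adjusted p in both, at 0.63 ± 0.21 (adjusted p = 0.233) and 0.66 ± 0.21 (adjusted p = 0.157). Of 13 genes for DREAM and MuvB subunits with MYBL2 and FOXM1, none passed in any of the 4 comparisons with edgeR or DESeq2. One of them, MYBL2, a transcription factor of late cell cycle genes, had 0.40 ± 0.14 in LLPSEp53_1 (adjusted p = 0.257) and 0.45 ± 0.14 in LLPSEp53_2 (adjusted p = 0.150) against p53. Below an unadjusted p of 0.05 lay 1 higher and 1 lower gene of that list in WT against Ctrl, and 1 higher gene in each other comparison.

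PLK4, the kinase that starts centriole duplication, passed in none of the 4 comparisons by edgeR or DESeq2, nor at unadjusted p under 0.05. It stood at 31.8, 22.1 and 30.0 CPM in WT and at 28.2, 25.8 and 25.8 in Ctrl, with overlapping groups and a log2 difference of 0.07 ± 0.14 (95% interval -0.21 to 0.36; adjusted p = 0.833). In 2022 it stood at 34.1 and 29.7 CPM in p53, at 38.7, 46.4 and 30.3 in LLPSEp53_1, and at 29.9, 31.7 and 32.8 in LLPSEp53_2. LLPSEp53_1 replicate 2 was the highest of these and its group the widest. Differences from p53 were 0.27 ± 0.18 for LLPSEp53_1 (interval -0.12 to 0.66) and -0.02 ± 0.18 for LLPSEp53_2 (-0.41 to 0.37), and LLPSEp53_2 minus LLPSEp53_1 was -0.29 ± 0.16 (-0.64 to 0.057). With the GC trend removed the differences of WT and of LLPSEp53_2 changed sign, to -0.072 and 0.049. Leaving out 1 library also turned their signs (WT replicate 1, p53 replicate 1 or LLPSEp53_2 replicate 1), and LLPSEp53_1 minus p53 was 0.12 without LLPSEp53_1 replicate 2.

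Of 19 genes of centriole duplication, 1 passed in WT against Ctrl. CNTROB, which encodes the daughter centriole protein centrobin, fell from 76.1 ± 5.59 to 56.0 ± 1.19 CPM (SD, n = 3 each; 1.36-fold lower; adjusted p = 0.0131), a call lost without WT replicate 1 or 3 or Ctrl replicate 3 and with the GC trend removed. The list's median was 0.007. None of the 19 passed in the comparisons of 2022 with edgeR or DESeq2. Their medians there were 0.04, 0.04 and 0.07 in the order LLPSEp53_1 against p53, LLPSEp53_2 against p53, and LLPSEp53_2 against LLPSEp53_1, with 1, 2 and 0 genes at unadjusted p under 0.05. FBXW11, a ubiquitin ligase subunit that recognises phosphorylated PLK4, had -0.47 ± 0.14 in LLPSEp53_1 (adjusted p = 0.190) and -0.36 ± 0.14 in LLPSEp53_2 (adjusted p = 0.294) against p53. Of 7 genes that signal extra centrosomes or delayed mitosis to p53, PIDD1 alone passed in WT against Ctrl. PIDD1 encodes the scaffold of the PIDDosome, which activates caspase-2, and is itself a known p53 target. It rose from 17.2 ± 4.22 to 32.5 ± 3.93 CPM (SD, n = 3 each; 1.89-fold; adjusted p = 6.8e-04). In LLPSEp53_2 it stood at 16.7 ± 1.59 CPM against 25.5 ± 3.62 in LLPSEp53_1 (log2 difference -0.61 ± 0.16; adjusted p = 0.188). None of the 7 passed in 2022 by edgeR or DESeq2, and the unadjusted p was below 0.05 for 1 lower gene in LLPSEp53_2 against each other group and for none in LLPSEp53_1 against p53.

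PLK2, an inducible kinase and known p53 target, stood at 306, 273 and 300 CPM in WT and at 232, 233 and 228 in Ctrl. All WT libraries were above all Ctrl libraries, and the log2 difference of 0.34 ± 0.11 (95% interval 0.12 to 0.56) did not pass (edgeR adjusted p = 0.0802; 0.0140 with DESeq2). In 2022 it stood at 138 and 133 CPM in p53, at 164, 175 and 170 in LLPSEp53_1, and at 121, 117 and 124 in LLPSEp53_2. The 3 groups did not overlap, with LLPSEp53_1 highest and LLPSEp53_2 lowest. LLPSEp53_1 minus p53 was 0.33 ± 0.13 (0.053 to 0.60; adjusted p = 0.306), LLPSEp53_2 minus p53 was -0.16 ± 0.13 (-0.44 to 0.11; adjusted p = 0.643), and LLPSEp53_2 minus LLPSEp53_1 was -0.49 ± 0.11 (-0.73 to -0.25; adjusted p = 0.116, and 0.0109 with DESeq2). With no batch term the differences from p53 were -0.62 for LLPSEp53_1, a change of sign, and -1.11 for LLPSEp53_2.

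PLK3, a stress-inducible kinase and known p53 target, lay below PLK2 in every library. It stood at 29.2, 31.5 and 28.4 CPM in WT and at 21.6, 16.3 and 16.1 in Ctrl. The groups did not overlap, and PLK3 was 1.65-fold higher in WT (log2 difference 0.72 ± 0.14; adjusted p = 0.00203). In 2022 it stood at 22.4 and 22.8 CPM in p53, at 28.4, 32.2 and 36.9 in LLPSEp53_1, and at 17.1, 17.3 and 16.9 in LLPSEp53_2. The 3 groups were again apart, in the order LLPSEp53_1, p53, LLPSEp53_2. PLK3 was 1.90-fold lower in LLPSEp53_2 than in LLPSEp53_1 (log2 difference -0.93 ± 0.14; adjusted p = 0.0133). That call was lost without LLPSEp53_1 replicate 2 or LLPSEp53_2 replicate 1, 2 or 3 (adjusted p from 0.0724 to 0.0959), while the difference stayed between -0.95 and -0.92. Against p53 the differences were 0.52 ± 0.16 for LLPSEp53_1 (95% interval 0.19 to 0.86; adjusted p = 0.186) and -0.40 ± 0.16 for LLPSEp53_2 (-0.74 to -0.066; adjusted p = 0.277). With no batch term these were -0.016 and -0.94.

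Of 12 partners and substrates of PLK2 and PLK3, 11 were tested and 1 passed in WT against Ctrl. JUN, a transcription factor that PLK3 is known to phosphorylate, fell from 611 ± 82.2 to 384 ± 49.2 CPM (SD, n = 3 each; 1.59-fold lower; adjusted p = 0.00293). None passed in 2022 with edgeR or DESeq2, and the unadjusted p was below 0.05 for 4 higher and 2 lower genes in LLPSEp53_1 against p53 (13.1% of all tested genes), 1 lower gene in LLPSEp53_2 against p53 and none between the constructs. HIF1A, the hypoxia factor that PLK3 is known to destabilise, had -0.52 ± 0.18 in LLPSEp53_2 against p53 (adjusted p = 0.218).

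PLK2 and PLK3 are also counted among immediate early genes, which serum and stress switch on within minutes. In WT against Ctrl most of the 20 other such genes on the list lay below 0. Of these 20, 9 passed, 2 higher and 7 lower, and 18 of 20 lay below 0 (median -0.35). EGR1 fell from 332 ± 47.8 to 149 ± 32.5 CPM (SD, n = 3 each; 2.22-fold lower; adjusted p = 2.6e-05), and FOS, FOSB, DUSP1, KLF4, KLF10 and NR4A1 fell 1.40-fold to 1.79-fold. The 2 that rose were EGR2, from 6.48 ± 1.16 to 24.1 ± 3.50 CPM (SD, n = 3 each; 3.71-fold; adjusted p = 1.8e-07), and ATF3, a stress-response factor that is a known p53 target, 1.41-fold (adjusted p = 0.0133). In LLPSEp53_1 against p53 none of the 20 passed with edgeR and 1 with DESeq2 (unadjusted p below 0.05 for 5 higher genes and 1 lower, and for 5.72% and 7.34% of all tested genes; median 0.08). In LLPSEp53_2 against p53, EGR2 fell from 19.0 ± 0.13 (n = 2) to 6.21 ± 0.57 CPM (n = 3; 3.05-fold lower; adjusted p = 3.5e-04). FOSL1, another AP-1 gene, rose from 272 ± 56.9 (n = 2) to 444 ± 23.7 CPM (n = 3; 1.63-fold; adjusted p = 0.0381), a call lost without any one of p53 replicates 1 and 3, LLPSEp53_1 replicate 2 and LLPSEp53_2 replicates 1, 2 and 3, and with no batch term. Between the constructs EGR2 (2.12-fold; adjusted p = 0.00621) and ATF3 (1.68-fold; adjusted p = 0.0417) were lower in LLPSEp53_2, with a list median of -0.20. The list's count fell from 2 to 0 without LLPSEp53_2 replicate 1, and to 1 without LLPSEp53_1 replicate 2 or LLPSEp53_2 replicate 2 or 3.

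The reference p53 targets, 23 genes beside the family, are set beside PLK2 and PLK3 here. In WT against Ctrl 20 of 23 passed, all higher, with a median log2 difference of 1.06, above the 0.72 of PLK3 and the 0.34 of PLK2. BTG2, an antiproliferative gene, was 15.6-fold higher, CDKN1A 3.13-fold and MDM2 4.61-fold. In LLPSEp53_1 against p53 none passed with edgeR and 2 with DESeq2 (unadjusted p below 0.05 for 4 higher genes and 1 lower, and for 5.72% and 7.34% of all tested genes), and CDKN1A stood at 424 ± 26.1 (n = 3) against 285 ± 1.46 CPM (n = 2; log2 difference 0.57 ± 0.14; adjusted p = 0.0848). In LLPSEp53_2 against p53, BTG2 alone passed, at 10.9 ± 0.85 (n = 3) against 22.7 ± 2.57 CPM (n = 2; 2.08-fold lower; adjusted p = 0.00798), a call lost without p53 replicate 1. The unadjusted p was below 0.05 for 0 higher genes and 5 lower in that comparison, and for 4.89% and 7.94% of all tested genes. Between the constructs 18 of 23 lay below 0 (median -0.21), and CDKN1A alone passed, 1.63-fold lower in LLPSEp53_2 (adjusted p = 0.0302). Below an unadjusted p of 0.05 lay 0 higher and 11 lower genes between the constructs, where all tested genes gave 2.73% and 4.5%. No gene of the list passed there without p53 replicate 1 or 3, LLPSEp53_1 replicate 2 or any 1 LLPSEp53_2 library, nor in a fit of the compared groups alone, while DESeq2 called 4.

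**Figure D3:**
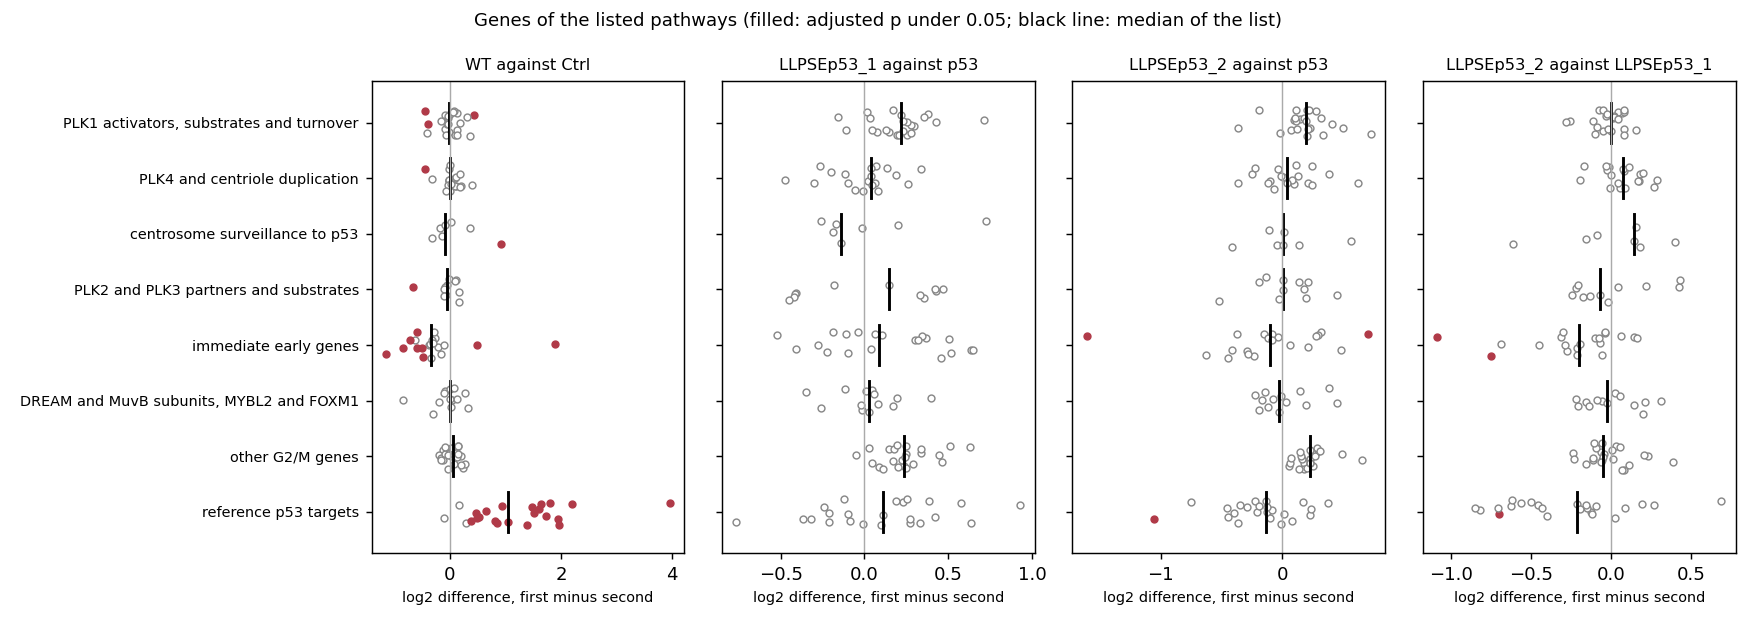
Log2 differences of the genes of 8 lists in the 4 comparisons, one circle per gene, filled where the adjusted p was under 0.05, with the list's median as a black line; each panel has its own x axis. Of the reference p53 targets 20 of 23 are filled to the right in WT against Ctrl, 7 of 9 filled immediate early genes lie to the left there, and the lists of mitotic genes centre near 0.2 in both comparisons with p53.

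PLK5, the truncated member, was close to the detection limit in Ctrl and showed the widest range of the family. Its raw counts were 19, 22 and 26 in WT and 4, 1 and 5 in Ctrl, which is 1.09, 1.32 and 1.53 CPM against 0.24, 0.056 and 0.27 CPM. The groups did not overlap, and PLK5 was 6.76-fold higher in WT in the fit (log2 difference 2.76 ± 0.52; adjusted p = 0.00218). The ratio of the summed counts, 67 against 10, was 6.97 after scaling for library size, with a 95% interval of 3.56 to 15.2 that covers counting error only. PLK5 passed the filter on low counts of 2023 through the WT libraries alone, since none of 3 Ctrl libraries reached its 0.58 CPM. Among tested genes it therefore had to lie higher in WT, while the filter did not set the size. With no filter on low counts the log2 difference was 2.76 (edgeR adjusted p = 8.5e-05). In 2022 PLK5 held 89 and 109 counts in p53, 46, 53 and 55 in LLPSEp53_1, and 14, 14 and 11 in LLPSEp53_2. These are 5.69 and 6.76 CPM, then 3.37, 3.55 and 3.38, then 0.86, 0.91 and 0.69. The 3 groups stood in the order p53, LLPSEp53_1, LLPSEp53_2 with no overlap. With p53 replicate 2 left out, PLK2 and PLK3 stood in another order, with LLPSEp53_1 above p53. That contrast depends on the batch term, since without it LLPSEp53_1 minus p53 was -0.62 for PLK2 and -0.016 for PLK3. None of these genes passed in LLPSEp53_1 against p53. LLPSEp53_2 was 7.53-fold below p53 (log2 difference -2.91 ± 0.25; adjusted p = 3.0e-04) and 4.16-fold below LLPSEp53_1 (-2.06 ± 0.24; adjusted p = 0.00257). LLPSEp53_1 minus p53 was -0.86 ± 0.22 (95% interval -1.33 to -0.38; adjusted p = 0.115), and -1.42 with no batch term. Set side by side, PLK5 in LLPSEp53_2 (0.82 ± 0.11 CPM) lay between Ctrl (0.19 ± 0.12) and WT (1.31 ± 0.22) of the other year (SD, n = 3 each).

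**Figure D4:**
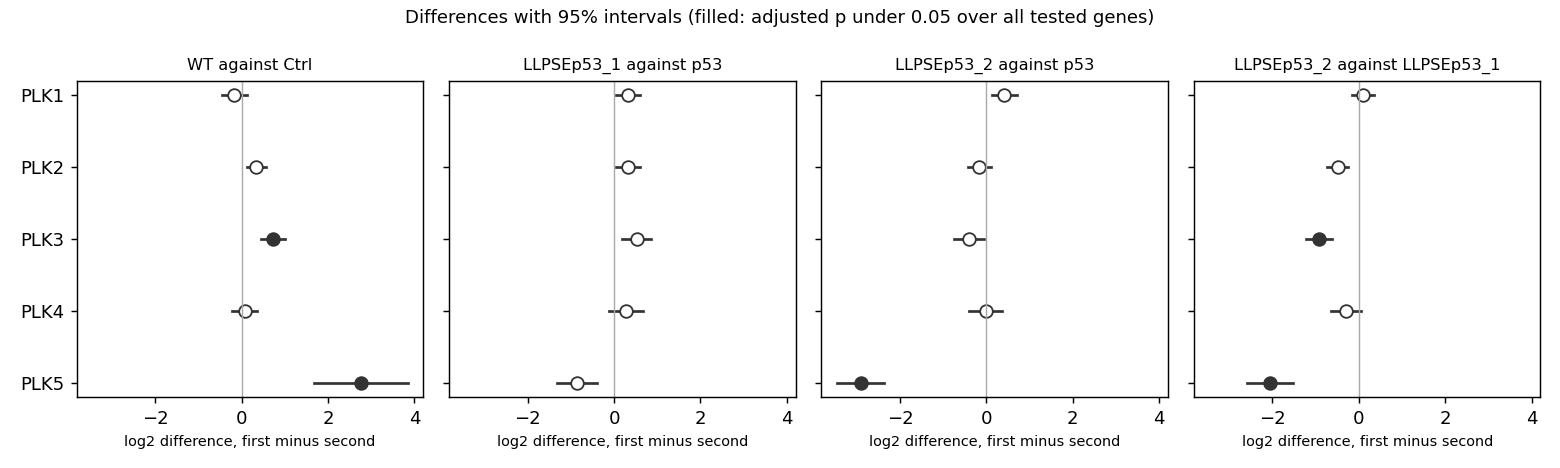
Log2 differences of the 5 genes in the 4 comparisons, first group minus second, with 95% intervals from the fit; filled circles have an adjusted p under 0.05 over all tested genes. PLK3 and PLK5 are filled to the right in WT against Ctrl and to the left in LLPSEp53_2 against LLPSEp53_1, PLK5 reaches -2.91 in LLPSEp53_2 against p53, and PLK1, PLK2 and PLK4 are open in every panel.

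The genes whose pattern came closest to each member were found by Pearson's r of log2 CPM with the mean of each year removed, over 14 libraries (p53 replicate 2 left out) and 11771 genes (11772 for PLK5). The libraries share groups, depth and batch, so r is a description. Group differences of a gene picked in this way resemble those of the member through the pick itself, so they add no support. For PLK1 they were MYBL2 (0.96), CDCA8 (0.95), a subunit of the chromosomal passenger complex, and LRRC59 (0.95). For PLK4 they were PLCB4 (0.94), SKA3 (0.92) of the outer kinetochore and the mitotic kinesin gene KIF18A (0.92). PLK2 and PLK3 were near each other (0.93): the others nearest to PLK2 were ZNF30 (0.98) and RNF144B (0.96), a ubiquitin ligase gene known as a p53 target, and those nearest to PLK3 were ATF3 (0.93) and WNT9A (0.91). For PLK5 they were the potassium channel gene KCNF1 (0.97), ARC (0.94), an activity-induced gene of neurons, and LRP5L (0.92). ARC had log2 differences of 2.69 ± 0.28 in WT against Ctrl, -0.99 ± 0.16 in LLPSEp53_1 and -2.78 ± 0.17 in LLPSEp53_2 against p53, and -1.79 ± 0.16 between the constructs, beside 2.76, -0.86, -2.91 and -2.06 for PLK5. RNF144B had 1.40 ± 0.18, 1.18 ± 0.22, -0.39 ± 0.22 and -1.57 ± 0.20, beside 0.34, 0.33, -0.16 and -0.49 for PLK2. CDKN1A had r of 0.82 with PLK2, 0.84 with PLK3, 0.64 with PLK5, 0.24 with PLK4 and -0.20 with PLK1. With all 15 libraries KCNF1 (0.98) and ARC (0.95) remained nearest to PLK5, WNT9A (0.94) to PLK3 and KIF18A (0.92) to PLK4, and the other names changed.

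The p53 library of the other batch, replicate 2, differed from replicates 1 and 3 in 4 of the 5 genes. It held 64.5 CPM of PLK1 against a mean of 148 (2.29-fold lower), 510 of PLK2 against 135 (3.77 times), 53.4 of PLK3 against 22.6 (2.36 times) and 15.1 of PLK5 against 6.22 (2.42 times), while PLK4 stood at 35.2 against 31.9 CPM (1.10 times). Over all tested genes 8.75% were at least 2-fold higher in it and 4.88% at least 2-fold lower. Among the lists, 15 of 20 immediate early genes (median log2 difference 1.79) and 11 of 23 reference p53 targets (median 0.90) were at least 2-fold higher. The 23 other G2/M genes had a median of -0.28, with 1 at least 2-fold lower, and the 23 PLK1 activators, substrates and turnover genes -0.27, with 2 higher and 1 lower. This is 1 library, so its values have no replicate check, and the library and its batch cannot be told apart.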

How the data were processed

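RNA-seq of 15 libraries was used. The deposited files hold unnormalised whole-number counts per Ensembl gene, read from the values. Per the labels' protocols, total RNA was taken up in Trizol and libraries made with the NEBNext Ultra II kit. Per the submitters' processing notes, Trimmomatic 0.39, STAR 2.7.10a and GRCh38 were used. No counter, annotation or strand setting is given in the sources used here. The headers of the LLPSEp53_1 files lack the construct number, so those libraries rest on the sample titles. Symbols were found for 61399 of 61552 IDs, and 58352 IDs are in GENCODE release 29.

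Tests used edgeR 4.0.16 in R 4.3.3 (TMM scaling, filterByExpr with a minimum count of 10, quasi-likelihood test, Benjamini-Hochberg adjustment over all tested genes, threshold 0.05), on 6 libraries of 2023 and on 9 of 2022 with a batch term. CPM values are scaled by TMM. SE is the log2 difference divided by the root of F. DESeq2 1.42.0, other scalings, no filter, left-out libraries, the replicate number as a block, a GC offset, no batch term and smaller fits were alternatives. The steps were tested on simulated counts. Every pair of libraries of a group differed beyond sampling noise (chi-square over its degrees of freedom 6.76 to 112).

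Members and lists were chosen with earlier results of these data known. Named genes are the members, CDKN1A and MDM2, up to 2 genes per list and comparison with the smallest adjusted p, and the 3 nearest in pattern to each member among genes with a mean log2 CPM of at least 2. Other called list genes (CDC25B, FOS, FOSB, DUSP1, KLF4, KLF10, NR4A1 and ATF3 in WT against Ctrl) were named after their values were seen, to account for counts. Certain results are not reported here.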

Additional observations from a re-analysis of the deposited data

How the results depend on the processing

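PLK5 passed the threshold in all alternatives for LLPSEp53_2 against p53 (17 of 17) and LLPSEp53_2 against LLPSEp53_1 (16 of 16). In WT against Ctrl it passed in 12 of 12, with log2 differences of 2.33 to 3.13. Apart from the fit with no filter on low counts (adjusted p = 8.5e-05), all tested it through the WT libraries alone. Those other fits say nothing of stability. PLK3 passed in 12 of 12 for WT against Ctrl and in 11 of 16 between the constructs. No member passed in LLPSEp53_1 against p53 under any of 17 alternatives. PLK2 passed in 2 of 12 alternatives for WT against Ctrl, DESeq2 and the replicate block (adjusted p = 0.0134), and in 2 of 16 between the constructs, DESeq2 and the GC trend removed (adjusted p = 0.0380). Same-numbered libraries did not deviate together in both pairs of groups (r from 0.032 to 0.42 for WT and Ctrl, -0.68 to -0.25 for the constructs), so numbers were not taken as pairs. With the replicate number as a block, 1645 genes passed in WT against Ctrl (665 without), 40 in LLPSEp53_1 against p53 (155), 183 in LLPSEp53_2 against p53 (337) and 33 between the constructs (65), where 1 of the 5 members then passed in place of 2 (PLK3 adjusted p = 0.0627). In the order LLPSEp53_1 against p53, LLPSEp53_2 against p53, and LLPSEp53_2 against LLPSEp53_1, DESeq2 called 258, 507 and 151 genes, no filter on low counts 562, 823 and 235, the GC trend removed 258, 607 and 114, and a fit of the compared groups 64, 1040 and 35. No batch term gave 94 for the first. Leaving out 1 library gave 356 (WT replicate 1) to 1381 (Ctrl replicate 2) genes in WT against Ctrl, 0 (p53 replicate 3) to 568 (LLPSEp53_1 replicate 1) in LLPSEp53_1 against p53, 93 (p53 replicate 3) to 928 (LLPSEp53_1 replicate 3) in LLPSEp53_2 against p53, and 21 (LLPSEp53_2 replicate 3) to 198 (LLPSEp53_1 replicate 3) between the constructs, with 1 to 2 members passing. Where p53 or another group was left with 1 library, it was assumed to vary like the other groups. PLK4 changed sign with the GC trend removed in WT against Ctrl (-0.072) and LLPSEp53_2 against p53 (0.049), and ranged from -0.031 to 0.22 and from -0.12 to 0.086 with 1 library left out. PLK2 and PLK3 changed sign in LLPSEp53_1 against p53 with no batch term (-0.62 and -0.016), and moved from -0.16 to -1.11 and from -0.40 to -0.94 in LLPSEp53_2 against p53. The cause of these shifts was not tested. Of 496 list counts under the alternatives, 424 were within 1.5 times the main count. Most main counts were 0, and a 0 that stayed 0 was taken as within, so this does not measure how stable the calls were. For PLK5 the depth is the limit: at 0.156 to 0.222 CPM per 3 counts, its Ctrl level rests on 10 reads in all.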
